A study of Mus musculus with 2 samples.

Results

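The genes described here are 9 adipocyte regulator and lipid droplet genes, Pparg, Cebpa, Cebpb, Lipe, Pnpla2, Plin1, Fabp4, Adipoq and Lep, of the 21851 protein-coding genes of the GENCODE M21 annotation. They were chosen by name, by a rule that uses no measured value, although earlier results of these data were known, and accessible chromatin was read in each gene body and 50 kb on each side. DNase-seq, in which the enzyme DNase I cuts open chromatin and the cut ends are sequenced, had been run on whole thymus tissue of adult female B6CASTF1/J mice, first-generation hybrids of B6 and CAST, at 18 to 20 months of age. There were 2 libraries in 1 group, biological replicates 1 and 2 of the labels, without any treatment, other age, other sex or other tissue. The 2 libraries share a donor record and carry separate biosample records, and their spread may therefore be a technical one.

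Fat cells form when the transcription factors C/EBPβ and then PPARγ and C/EBPα, the products of Cebpb, Pparg and Cebpa, switch on the genes of fat storage. Perilipin 1 (Plin1) coats the lipid droplet of the fat cell, the lipases ATGL (Pnpla2) and HSL (Lipe) release fatty acids from it, FABP4 carries fatty acids, and adiponectin (Adipoq) and leptin (Lep) are hormones that fat cells secrete. The thymus is made mostly of developing T cells when young, shrinks with age, and then gains fat cells in and around it. The factors and lipases also work in other cells, C/EBPβ in myeloid cells and both lipases in many tissues, whereas Adipoq, Fabp4, Plin1 and Lep are used as fat cell markers, with Fabp4 also present in some macrophages and blood vessels.

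Each library came with a shorter list of 50648 and 49872 peaks (replicates 1 and 2) and a longer list of 77453 and 79004 peaks. A peak carries a signal in the authors' units, whose scale, and whether it allows for peak width, are not stated. The shorter list was used unless the longer one is named. Peaks with their centre within 1 kb of the start of a protein-coding transcript were promoter peaks, and all others were distal. Distal peaks thus include those at starts that are not protein-coding. The median signal of the shorter list was 2.85 and 2.52 at promoters and 1.37 and 1.15 at distal peaks. Read depth is unknown. In whole tissue, strong accessibility in few cells and weak accessibility in many cells cannot be told apart.

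Of the promoters, 5 of 9 carried a peak in both libraries (55.6%), those of the regulators Pparg, Cebpa and Cebpb and of the lipases Lipe and Pnpla2. The background share was 53.4% of all protein-coding genes, so the count of members lay close to it. The promoters of Plin1, Fabp4, Adipoq and Lep had no peak in either list of either library. In the longer list the count was also 5 of 9, against 57.8% of all genes. All 9 genes had a distal peak in both libraries, against 67.8% of all protein-coding genes.

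The sequences on which these results turn are shown first, from the GRCm38.p6 (mm10) assembly, 5′ to 3′ on the strand of the gene, and without annotated exons. The assembly represents B6, and the CAST alleles were not read. In the peaks, capitals mark bases inside a footprint, a short stretch protected from cutting, in both libraries. The first pair are promoter peaks, of Pnpla2 as the strongest of the 9 genes (chr7:141455041-141455197, plus strand) and of Cebpa (chr7:35119061-35119292, plus strand). Next stand the strongest shared distal peaks of Pparg (chr6:115538981-115539200), Cebpa (chr7:35169461-35169700) and Cebpb (chr2:167685221-167685440), all on the plus strand. Last come distal peaks close to fat cell markers, of Adipoq (chr16:23144439-23144620, plus strand), Fabp4 (chr3:10212139-10212320, minus strand) and Plin1 (chr7:79727181-79727380, minus strand). Those of Fabp4 and Plin1 are neither the nearest to a start nor the strongest of their gene. They hold matches described below, a direct repeat at Fabp4 and the CTCF consensus at Plin1, and stronger peaks of both genes are not printed.
Pnpla2 promoter peak: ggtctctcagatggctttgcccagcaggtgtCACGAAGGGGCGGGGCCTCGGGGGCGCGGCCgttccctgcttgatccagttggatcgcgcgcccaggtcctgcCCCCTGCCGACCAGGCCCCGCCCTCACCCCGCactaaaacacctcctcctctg
Cebpa promoter peak: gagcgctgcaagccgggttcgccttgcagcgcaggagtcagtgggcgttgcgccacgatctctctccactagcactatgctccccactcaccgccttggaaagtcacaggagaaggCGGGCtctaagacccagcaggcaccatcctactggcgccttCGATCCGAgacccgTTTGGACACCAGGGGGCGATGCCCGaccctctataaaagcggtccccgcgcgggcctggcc
Pparg distal peak: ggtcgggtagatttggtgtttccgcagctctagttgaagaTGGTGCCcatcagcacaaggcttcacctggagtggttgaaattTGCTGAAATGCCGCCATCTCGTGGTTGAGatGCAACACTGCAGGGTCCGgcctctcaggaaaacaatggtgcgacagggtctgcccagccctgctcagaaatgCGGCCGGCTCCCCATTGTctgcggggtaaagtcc
Cebpa distal peak: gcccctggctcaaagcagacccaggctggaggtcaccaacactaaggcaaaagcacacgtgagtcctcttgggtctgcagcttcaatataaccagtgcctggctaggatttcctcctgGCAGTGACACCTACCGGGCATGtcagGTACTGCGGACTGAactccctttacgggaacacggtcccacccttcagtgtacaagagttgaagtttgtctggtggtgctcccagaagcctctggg
Cebpb distal peak: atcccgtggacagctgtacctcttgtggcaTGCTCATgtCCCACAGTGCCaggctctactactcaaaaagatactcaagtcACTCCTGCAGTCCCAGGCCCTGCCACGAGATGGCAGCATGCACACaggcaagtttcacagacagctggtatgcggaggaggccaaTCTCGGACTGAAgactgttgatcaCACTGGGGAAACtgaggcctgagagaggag
Adipoq distal peak: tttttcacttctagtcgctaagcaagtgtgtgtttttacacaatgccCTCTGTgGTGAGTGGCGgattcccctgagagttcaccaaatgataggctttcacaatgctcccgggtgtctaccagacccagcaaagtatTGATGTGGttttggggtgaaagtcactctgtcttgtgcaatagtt
Fabp4 distal peak: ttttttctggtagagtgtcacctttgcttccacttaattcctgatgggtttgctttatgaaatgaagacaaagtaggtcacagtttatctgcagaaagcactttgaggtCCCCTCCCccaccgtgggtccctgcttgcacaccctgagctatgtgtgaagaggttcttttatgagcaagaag
Plin1 distal peak: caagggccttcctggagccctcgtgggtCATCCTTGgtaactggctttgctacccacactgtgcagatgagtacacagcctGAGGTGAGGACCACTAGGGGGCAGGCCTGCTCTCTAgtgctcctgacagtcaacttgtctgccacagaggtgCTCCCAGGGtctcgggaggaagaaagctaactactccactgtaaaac

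Promoter windows without a peak are shown for comparison, from the RefSeq promoter table of the same assembly and up to the start site. They are the windows of Lep (chr6:29059971-29060219, plus strand), of the internal start of Pparg (chr6:115421816-115422065, plus strand) and of Adipoq (chr16:23146286-23146535, plus strand). Capitals in them mark letters of the C/EBP pattern TTGCNNAA on either strand. The Adipoq window holds none.
Lep promoter window: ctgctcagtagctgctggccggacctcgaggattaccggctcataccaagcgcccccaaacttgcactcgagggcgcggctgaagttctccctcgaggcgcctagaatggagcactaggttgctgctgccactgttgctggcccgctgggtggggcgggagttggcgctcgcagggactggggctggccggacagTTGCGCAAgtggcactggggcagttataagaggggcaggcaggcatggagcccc
Pparg internal promoter window: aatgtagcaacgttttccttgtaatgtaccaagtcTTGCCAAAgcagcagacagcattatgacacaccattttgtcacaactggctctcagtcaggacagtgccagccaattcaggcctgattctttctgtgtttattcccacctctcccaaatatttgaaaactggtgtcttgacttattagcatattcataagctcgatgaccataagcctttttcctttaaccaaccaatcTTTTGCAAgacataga
Adipoq promoter window: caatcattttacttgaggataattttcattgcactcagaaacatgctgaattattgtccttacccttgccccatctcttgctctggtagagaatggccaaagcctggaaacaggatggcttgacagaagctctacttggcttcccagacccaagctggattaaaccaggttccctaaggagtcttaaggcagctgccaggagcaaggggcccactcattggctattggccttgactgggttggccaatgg

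Pparg, the nuclear receptor gene on which fat cell formation depends, lies on chromosome 6 from 115360951 to 115490399 on the plus strand. Its strongest promoter peak had a signal of 0.5995 in replicate 1 and 0.391 in replicate 2 (0.495 ± 0.147, mean ± SD, n = 2). Only 2.11% and 0.410% of the genes with a promoter peak in that library had a lower signal. Those strongest peaks did not overlap between the libraries in the shorter lists, whereas the longer lists gave the same signals at wider peaks that did overlap (115361021 to 115361420 and 115361098 to 115362000). At the second of its 3 coding starts, a peak of replicate 1 (115362123 to 115362319, signal 0.331) did overlap one of replicate 2 (115362217 to 115362404, signal 0.385). Both upstream starts, those of the transcripts Pparg-202 (115360951) and Pparg-204 (115362292), thus had weak peak signals. Within 1 kb of the first, 598 and 997 bases had a false discovery rate of at most 0.05, and 668 and 1159 within 1 kb of the second. The base counts were not low in both libraries. In replicate 1 both were below the 1528 at the Cebpa-202 start, and in replicate 2 both were above its 656.

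The third start of Pparg, that of Pparg-201 at 115422066, belongs to the transcript of PPARγ2, the form typical of fat cells. Within 1 kb of it no base run, no footprint and no peak was listed in either library. The centre of the nearest peak lay 59845 bp away in replicate 1 and 59755 bp in replicate 2, and 41109 and 41081 bp away in the longer lists. The accessibility at Pparg was therefore confined, among its starts and in these lists, to the 2 upstream starts.

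Cebpa, which encodes C/EBPα, lies on chromosome 7 from 35119293 to 35121928 on the plus strand. The promoter signal was 2.72 in replicate 1 and 1.90 in replicate 2 (2.31 ± 0.581). The overlapping peaks ended just after the start site, at 35119340 in both libraries. At the same start, 1528 bases had a false discovery rate of at most 0.05 in replicate 1 and 656 in replicate 2, and the lowest rates were 5.95e-25 and 7.39e-14. Replicate 1 had the higher signal, the larger number of bases and the lower false discovery rate.

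Cebpb, which encodes C/EBPβ, lies on chromosome 2 from 167688915 to 167690418 on the plus strand. The promoter signal was 2.30 in replicate 1 and 1.58 in replicate 2 (1.94 ± 0.510). The strongest peaks differed in extent, 940 bp from 167688381 in replicate 1 and 492 bp from 167688826 in replicate 2. Both spanned the start site. Of the bases around it, 1428 and 1593 had a false discovery rate of at most 0.05. In their library, 20.4% and 15.7% of the genes with a promoter peak had a lower signal than Cebpb, and 24.1% and 19.2% a lower one than Cebpa.

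The lipases had the stronger promoters. Lipe, which encodes hormone-sensitive lipase, lies on chromosome 7 from 25379527 to 25398710 on the minus strand. Its signal was 6.65 in replicate 1 and 6.24 in replicate 2 (6.44 ± 0.292). Pnpla2, which encodes the lipase of the first step of fat breakdown, lies on chromosome 7 from 141455198 to 141460743 on the plus strand, and had 10.1 and 7.89 (8.999 ± 1.57). In both libraries each lipase promoter was stronger than each regulator promoter, and Pnpla2 was above 78.1% and 69.5% of the genes with a promoter peak.

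**Figure D1:**
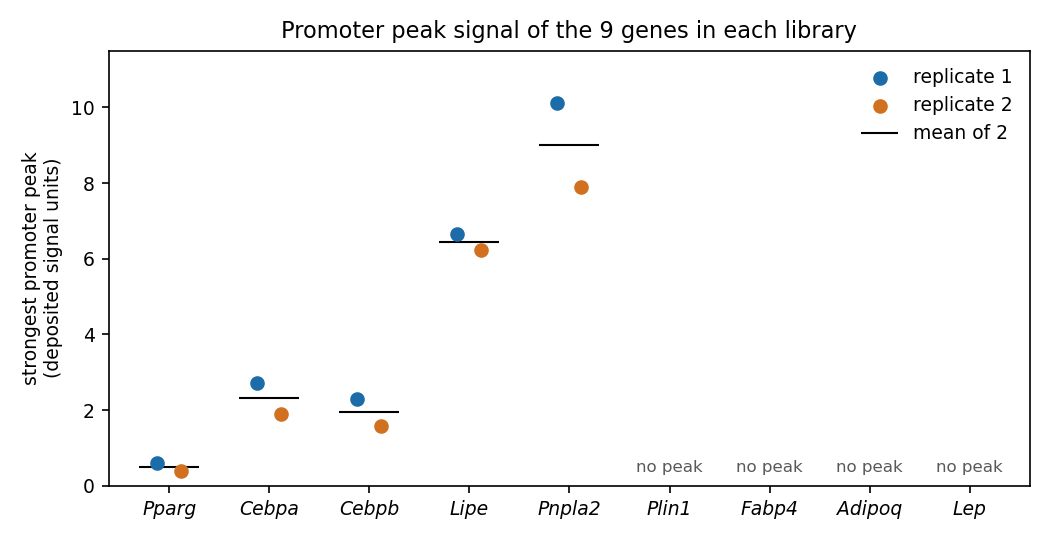
Signal of the strongest promoter peak of each gene (y axis, units of the deposited lists) in replicates 1 and 2, with the mean of the 2 as a bar. Pnpla2 and Lipe lie above the 3 regulators, Pparg lies lowest of those with a peak, and Plin1, Fabp4, Adipoq and Lep have none.

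Lipe was accessible at 1 of its 5 coding starts, that of Lipe-201 at 25396379. Near it lay 3 peaks in each library, with signals of 6.65, 4.67 and 2.76 in replicate 1 and 6.24, 3.91 and 2.98 in replicate 2. The strongest stood 668 and 658 bp past the start, within an exon. It lay closer, at 297 and 307 bp, to a start of the overlapping gene 4732471J01Rik that is not protein-coding. With a promoter window of 500 bp the mean signal of Lipe was 4.292 ± 0.535. The starts of Lipe-203 and Lipe-204 at the outer end of the gene, and those of Lipe-202 and Lipe-208 further in, had no base run and no footprint within 1 kb in either library. When only the start of the longest coding transcript was used (Lipe-204), Lipe was no longer counted, which left 4 members with a promoter peak.

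The 4 fat cell marker genes showed nothing within 1 kb of any start. Around the starts of Adipoq, Fabp4 and Lep and the 4 starts of Plin1, 0 bases had a listed false discovery rate of at most 0.05, and 0 footprints were listed, in both libraries. Base runs at that rate were present in both libraries near 5 of the 9 genes, against 58.8% of all protein-coding genes, and at a rate of at most 0.001 near the same 5, against 54.1%. Of the 9561 protein-coding genes without a promoter peak in either library, 648 (6.78%) still had a base run in both libraries, and none of these 4 genes was among them. A listing starts at the authors' threshold, so a signal under it is not detectable here.

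**Figure D2:**
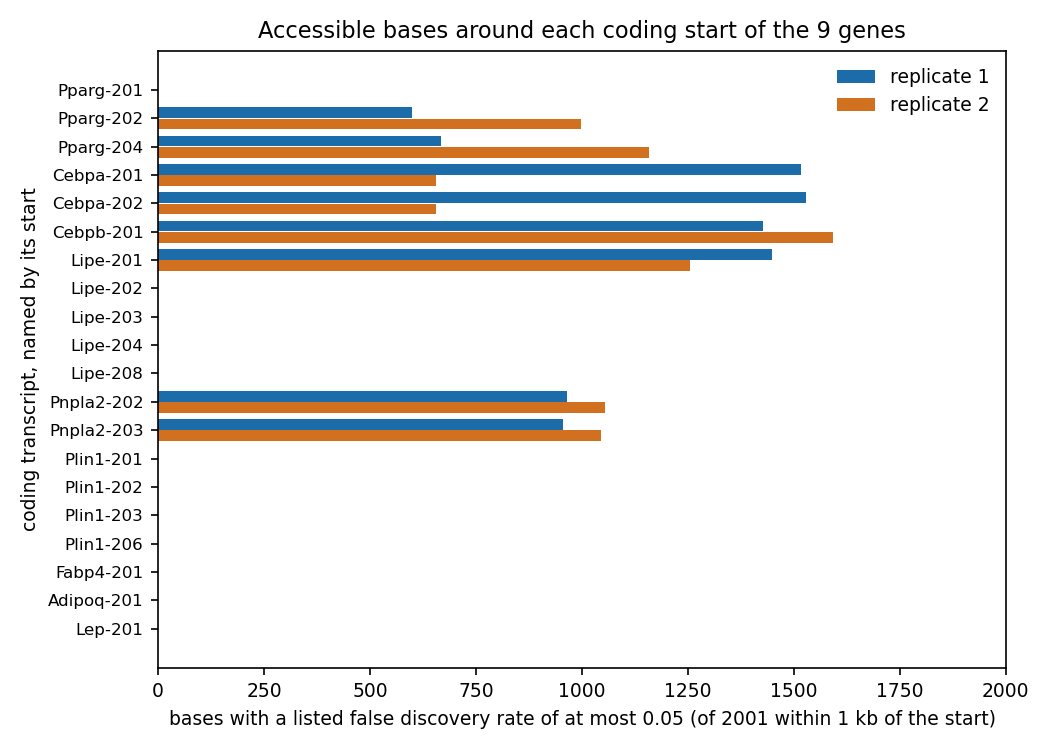
Bases with a listed false discovery rate of at most 0.05 (x axis) within 1 kb of each coding start of the 9 genes (y axis), for replicates 1 and 2. Bars are present at the first pair of Pparg starts, at Cebpa, Cebpb and Pnpla2, and at 1 Lipe start, and are 0 at the internal Pparg start, the other Lipe starts, Plin1, Fabp4, Adipoq and Lep.

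The nearest peaks stood at different distances from these closed starts. At Adipoq the centre lay 2012 bp away in replicate 1 and 2005 bp in replicate 2, and at Fabp4 3285 and 3265 bp. At Plin1-202 it lay 2760 and 3770 bp away. Lep stood apart, with 17975 and 35909 bp. In the longer lists the distances were 2015 and 2005 bp at Adipoq, 2654 and 2712 bp at Fabp4, and 2219 and 2738 bp at Plin1-202. There the libraries were alike at Lep, with 17979 and 17943 bp.

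The promoter sequences of the open and closed starts were read for CpG content, which is high at promoters used in many cell types. The RefSeq table, with 250 bases before and 50 after the start, held 11 starts of 8 of the 9 genes, all but Fabp4. The ratio of observed to expected CpG was 1.03 at Cebpb, 0.909 and 0.467 at the first and second Pparg starts, 0.853 at Cebpa, 0.681 at the upstream Lipe start and 0.563 at Pnpla2, all with a peak within 1 kb in both libraries. Those without a peak had 0.170 at the internal Pparg start, 0.0862 at Plin1, 0.0748 at the second Lipe start and 0 at Adipoq, where the printed window holds no CpG. Lep was the exception, with 0.590 and no peak. Over all 32851 promoters of the table, the median was 0.384 and the quartiles 0.176 and 0.7498. These values describe 11 windows and were not tested.

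**Figure D3:**
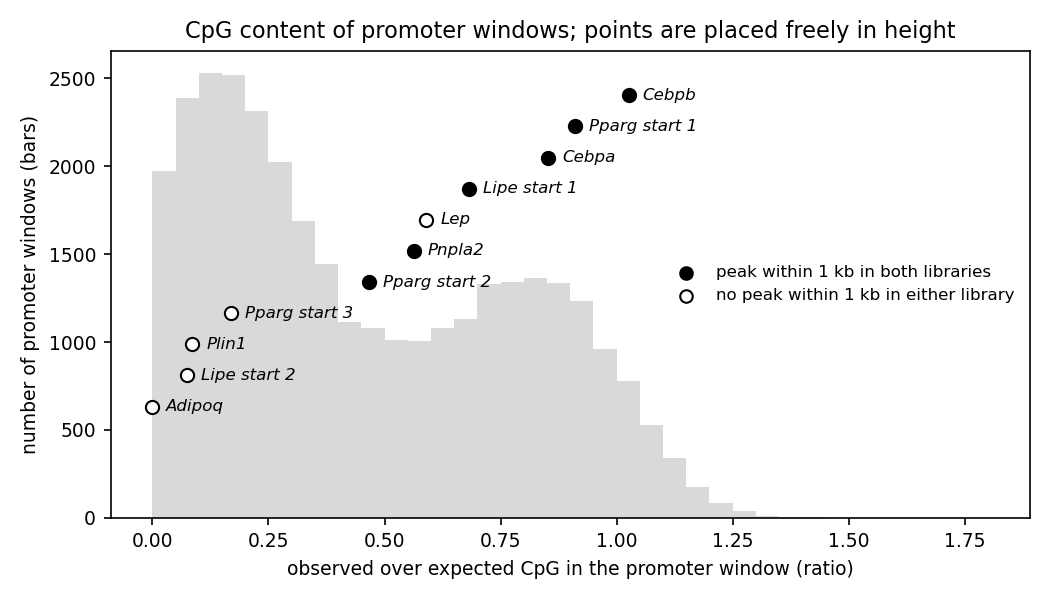
Observed over expected CpG (x axis, ratio) in the 300-base promoter windows of RefSeq, as a histogram over the whole table (grey bars, y axis number of windows) and as points for the members, whose height has no meaning. Starts of 1 gene are numbered in the direction of transcription, and the filled points (a peak in both libraries) lie to the right of all open points but that of Lep.

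Beyond the promoters, the 9 genes held 39 distal peaks in replicate 1 and 35 in replicate 2. The median was 4 per member and 2 over all protein-coding genes, with spans of similar median length, 111493 and 117380 bp. Counts ran from 1 and 1 at Cebpa to 10 and 7 at Cebpb. Of the 4 fat cell markers without a promoter peak, 3 had more distal peaks than the median gene. Adipoq had 6 and 6, Fabp4 6 and 4, Plin1 5 and 4, and Lep 3 and 1. By their mean count, Adipoq lay above 82.7%, Fabp4 above 77.0%, Plin1 above 73.2% and Lep above 45.6% of all protein-coding genes. A peak within 50 kb of several genes counts for each of them, so its target is unknown.

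Of the distal peaks, 29 were shared between the libraries, which is 74.4% of those of replicate 1 and 82.9% of those of replicate 2. Over all distal peaks the shares were 74.0% and 75.5%. Of the shared ones, 14 lay in introns, 7 in exons and 8 between genes, 9 lay in the body of the member itself, and for 17 the nearest coding start was that of the member. The median signal of all members' distal peaks was 1.503 and 1.396.

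**Figure D4:**
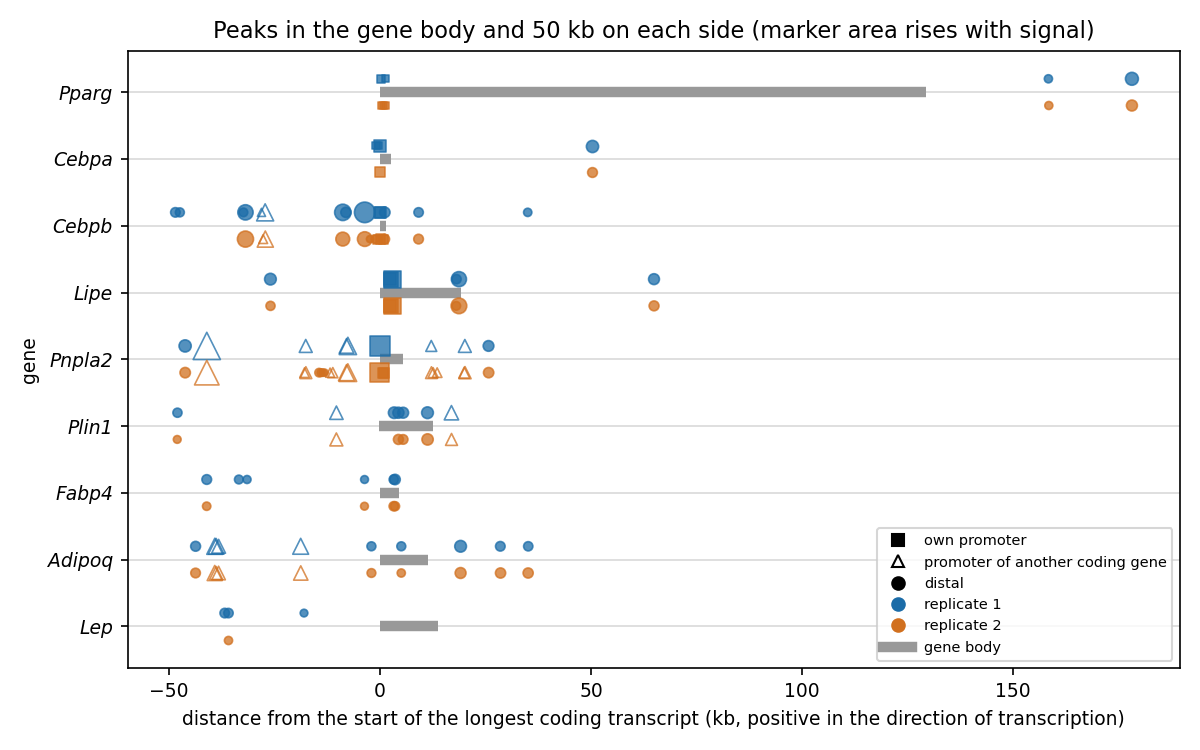
Peaks of the shorter lists in the body of each gene (grey) and 50 kb on each side, by the distance of the peak centre from the start of the longest coding transcript (x axis, kb). Marker area rises with the signal, and own promoter, distal and other genes' promoter peaks have different shapes. The row of Lep is the emptiest, and large distal markers stand upstream of Cebpb and at the far end of Lipe.

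By mean signal, the strongest shared distal peak of the whole set flanked Cebpb. With distances from its start, the peak at -3594 bp (chromosome 2, 167685221 to 167685420), in an intron of Tmem189, had signals of 9.91 and 4.59 (7.25 ± 3.76). It exceeded the promoter of Cebpb in both libraries and lay above 99.3% and 94.9% of distal peaks. The peak at -31844 bp had 5.09 and 5.75 (5.42 ± 0.463), and that at -8784 bp had 5.97 and 4.01 (4.99 ± 1.38), both again in introns annotated to Tmem189. In both libraries these 3 exceeded the other shared distal peaks of the gene, at 1166 bp inside its exon (1.89 and 1.40) and at 9172 bp downstream (1.38 and 1.49).

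Pparg and Cebpa had few distal peaks, all far from their starts. Neither library listed a distal peak in the Pparg body, which spans 129449 bp; the longer lists added 2 and 1, with signals up to 0.456 and 0.424. The strongest distal peak lay at 178140 bp, past the end of the gene, with 3.36 and 2.18 (2.77 ± 0.838). A weaker one at 158359 bp had 0.814 and 0.757. The single shared peak of Cebpa, at 50308 bp and nearest to Slc7a10, had 2.93 and 1.55 (2.24 ± 0.976).

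The strongest distal peak of Lipe lay in its exon at the far end of the gene (chromosome 7, 25379861 to 25380120, 18719 bp from the start of Lipe-204). It had 4.93 and 5.37 (5.15 ± 0.310), was above 94.99% and 96.43% of distal peaks, and stood beside 6.65 and 6.24 at the promoter. The peak at -25931 bp had 2.59 and 1.22. At Pnpla2 the shared distal peaks lay in introns of other genes, at -46137 bp in Gatd1 (2.91 and 1.87) and at 25730 bp in Tspan4 (2.03 and 1.813).

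Plin1 had 3 shared peaks in its own body although its starts were closed. They lay at 11276 bp in an exon (2.63 and 2.37; 2.499 ± 0.186), at 4386 bp in an intron (2.22 and 1.64; 1.93 ± 0.407) and at 5506 bp in an intron (2.13 and 1.455; 1.79 ± 0.477). Another peak of replicate 1, at 3376 bp with a signal of 2.49, was absent from the shorter list of replicate 2 and present in the longer one. The 3 shared peaks exceeded the median of all distal peaks in both libraries.

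At Adipoq the 3 strongest shared peaks lay outside the gene, at 19115 bp (2.61 and 2.13), 28525 bp (1.46 and 1.77) and -43655 bp (1.59 and 1.47). That at 28525 bp lay 227 and 173 bp from a start of B630019A10Rik that is not protein-coding. The peak nearest to the start, at -2012 bp, was weaker, with 1.15 and 1.06 (1.11 ± 0.0690), as was the only one in its body, at 5067 bp in an intron, with 1.15 and 0.822. All 6 Adipoq peaks of either library had a partner in the other. At Fabp4 the strongest peaks were in its own intron at 3595 bp (1.86 and 1.23) and exon at 3285 bp (1.31 and 1.29), then in an intron of Fabp12 at -41016 bp (1.503 and 0.881). The peak at -3637 bp, upstream of Fabp4, was weak in both libraries (0.680 and 0.659), with only 12.7% and 18.9% of distal peaks lower. The single shared peak of Lep, at -35869 bp in an exon of Gm3294, had 1.36 and 0.815.

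Promoters of neighbouring genes exceeded every peak of some members. In the span of Pnpla2, which holds 9 other coding genes, the promoter peak of Gatd1 had 18.1 and 14.5. Around Adipoq the promoter peaks of Eif4a2 (5.74 and 4.94) and Rfc4 (5.56 and 4.34) exceeded its distal peaks, and around Plin1 those of Kif7 (4.38 and 2.76) and Pex11a (3.68 and 3.40) did. The spans of Pparg, Cebpa, Fabp4, Lipe and Lep held no promoter peak of another coding gene.

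The libraries differed at single peaks. Over 38993 pairs of overlapping peaks across the genome, the median log2 ratio of replicate 2 over replicate 1 was -0.17 (SD 0.44), and ratios below are given after subtracting this median. Of the 29 shared distal peaks, 17 were then lower in replicate 2. The largest differences were those of Cebpb at -3594 bp (-0.94) and Lipe at -25931 bp (-0.92). In size, these exceeded the ratios of 96.5% and 96.1% of all pairs. The promoter ratios were smaller, -0.44 at Pparg, -0.35 at Cebpa, -0.37 at Cebpb, 0.08 at Lipe and -0.19 at Pnpla2, where that of Pparg compares peaks that overlap only in the longer lists. All of these lay within the central 95% of all pairs, from -0.99 to 0.69.

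**Figure D5:**
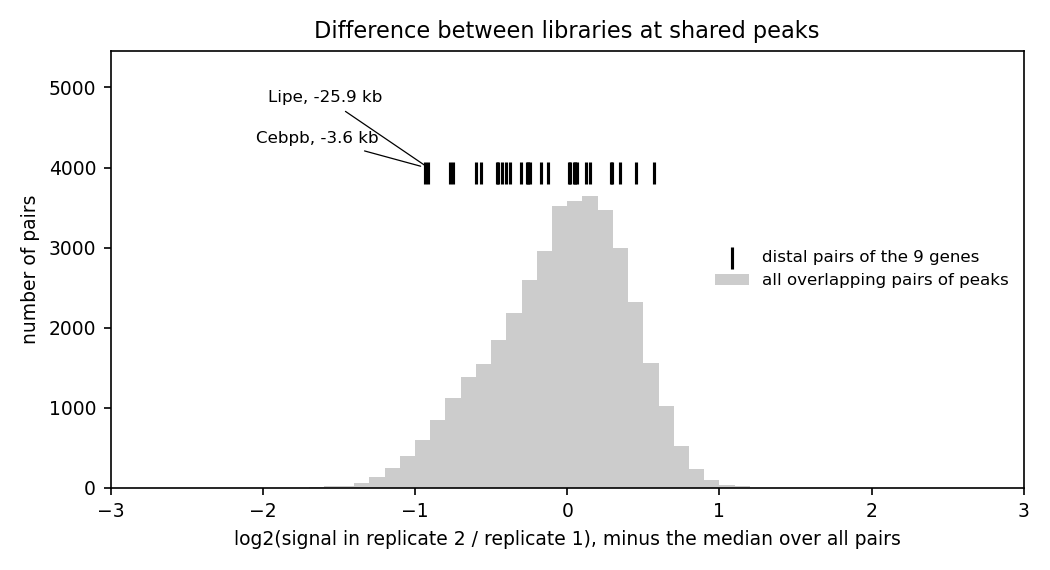
Log2 ratio of the signal in replicate 2 over replicate 1, less the median over all pairs (x axis), for all overlapping pairs of peaks (grey, y axis number of pairs) and for the 29 shared distal peaks of the 9 genes (black ticks). The Cebpb peak at -3594 bp and the Lipe peak at -25931 bp stand at the left end of the ticks, inside the range of all pairs.

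Distal peaks seen in 1 library were in most cases weaker than the median distal peak. Replicate 1 held 10 of them, 5 at Cebpb, 2 at Fabp4, 2 at Lep and 1 at Plin1, with signals from 0.608 to 2.49, and 9 of the 10 overlapped a peak of the longer list of replicate 2. Replicate 2 held 6, 2 at Cebpb and 4 at Pnpla2, with signals from 0.398 to 0.965, and none overlapped a peak of the longer list of replicate 1. The 4 at Pnpla2 lay side by side in Pidd1, from -14403 to -13080 bp, and account for its counts of 2 and 6.

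Footprints numbered 316 in replicate 1 and 346 in replicate 2 over the 9 spans, of which 180 and 185 overlapped one of the other library. The median per member was 33 and 27, against 24 and 25 over all protein-coding genes. Only 34 and 41 lay in the members' own promoter peaks, and 116 and 104 in distal peaks. Own promoter peaks held 12 and 9 footprints at Cebpb, 10 and 14 at Lipe, 5 and 7 at Pparg, 5 and 5 at Cebpa, and 2 and 6 at Pnpla2. Lep had the fewest in its span, 9 and 8, and Pnpla2 the most, 66 and 107, of which 28 and 53 lay in promoter peaks of other genes. Bases at a false discovery rate of at most 0.05 had a median of 3180 and 2811 per member, against 2983 and 2877 over all genes.

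Sequence patterns were searched in the printed stretches on both strands, with bases counted from 1 at the first printed base. In the Pnpla2 promoter peak, the SP and KLF pattern GGGCGG stood at bases 39 to 44 and, on the other strand, 122 to 127, and all its bases lay in footprints of both libraries. It was present in 35.7% of all promoter windows. The Cebpa promoter peak held TATAAA at bases 203 to 208, outside the common footprints (13.6% of promoter windows).

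The C/EBP pattern TTGCNNAA occurred in 10.8% of promoter windows, and in 7.23% and 7.21% of all distal peaks, read as 200-base windows around the peak centre. Of the members' distal peaks, 3 of 39 and 5 of 35 held it. In the distal peak of Pparg it read TTGCTGAA at bases 83 to 90, with 7 of its 8 bases in footprints of both libraries. In the Adipoq peak at -2012 bp it read TTGTGCAA at bases 170 to 177, outside the common footprints. Of peaks not printed here, that of Plin1 at 4386 bp held TTGCTAAA and that of Fabp4 at 3595 bp TTGCTTAA, both outside the common footprints. The Fabp4 match lay outside the 200-base windows and is not in the counts. The common footprint over the Pparg match continues past its end, so that footprint cannot be assigned to the C/EBP pattern. The palindrome TTGCGCAA, which overlaps that pattern and was found in 0.183% of promoter windows, stood in the Lep window at bases 196 to 203, where neither library had a peak. The internal Pparg window held the pattern at bases 36 to 43 and 235 to 242.

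The nuclear receptor core AGGTCA stood at bases 75 to 80 of the Fabp4 peak at -3637 bp. There it began a direct repeat of that core with 1 base between, as PPARγ binds together with RXR, if up to 2 mismatches were allowed (bases 75 to 87). No base of it lay in a common footprint. Such a repeat was present in 2.46% and 2.74% of all distal peaks and in 1 of 39 and 1 of 35 of the members'. The RUNX pattern TGTGGT, of factors that act in T cells among others, stood in the Adipoq peak at -2012 bp at bases 51 to 56 and 141 to 146, each time with 5 of 6 bases in footprints of both libraries. It was present in 20.96% and 21.86% of all distal peaks and in 6 of 39 and 5 of 35 of the members'. The Plin1 peak at 5506 bp held the CTCF consensus at bases 92 to 103, all in a common footprint, and this consensus occurred in 13.5% and 9.66% of all distal peaks and in 2 of 39 and 2 of 35 of the members'. Mismatches were allowed for the direct repeat alone. Near matches to the other patterns, such as the CTCF consensus, are therefore not listed, including any within the printed footprints. A match is a description of letters only.

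Other genes of fat cells and lipid droplets were read for comparison, 49 in all. Of these, 28 had a promoter peak in both libraries (57.1%, 65.3% in the longer lists), 2 in 1 library and 19 in neither. The shares over all protein-coding genes were 53.4% and 57.8%. The median signal of the open ones was 4.56, against 5.59 over all open protein-coding genes and 2.31 over the 5 open members. The strongest were Acly, which supplies acetyl-CoA for fat synthesis (17.5 ± 0.786), Acsl1, which activates fatty acids (14.1 ± 2.57), and Dgat1, which completes triglycerides (12.5 ± 1.49). The droplet proteins Plin4, Plin5 and Cidec had no promoter peak in either library. Klf15, a transcription factor gene, had one in replicate 1 (0.859) and Ppargc1a, a coactivator gene, in replicate 2 (0.489).

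Partners of the members are given next, named after their values were seen. The adiponectin receptor genes Adipor1 (8.45 ± 0.165) and Adipor2 (10.6 ± 0.547) were open, whereas the leptin receptor gene Lepr had no promoter peak. Abhd5, which encodes the activator of ATGL, had 4.13 ± 0.404, and G0s2, which encodes its inhibitor, 1.07 ± 0.105. Rxra, which encodes the partner receptor of PPARγ, had 1.24 ± 0.356.

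Markers of cells that a thymus can hold were read in the same way. The counts stand against 53.4% of all protein-coding genes with a promoter peak in both libraries, and 57.8% in the longer lists. Of 12 T cell marker genes, 10 had a promoter peak in both libraries (12 in the longer lists). Of 8 fat cell markers, which include the members Adipoq, Fabp4, Plin1, Lep and Pparg, only Pparg did, and Cidec, Cfd and Retn had none. Among other cells, 1 of 8 myeloid (3 in the longer lists), 3 of 8 fibroblast, 3 of 6 endothelial and 3 of 7 thymic epithelial markers, and 1 of 5 brown fat cell markers, were open in both libraries. In the longer lists the counts of the fat cell, fibroblast, endothelial, thymic epithelial and brown fat cell markers were the same. The part of each cell type in the peaks of the 9 genes was not tested.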

How the data were processed

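Per the file notes, the authors deposited for each of the 2 DNase-seq libraries, on mm10 and without pooling, 2 peak lists with a signal per peak, a list of base runs with a q-value (false discovery rate) and a footprint list whose value is the constant 0.01. Not given in the sources used here are the scale of the deposited signal, the depth, the aligner and the peak caller. Because peaks and runs were listed from unknown thresholds, weak accessibility is missing from them, and signals may carry a scale of their own per library. The annotation was GENCODE M21 (basic set), with 41408 starts of coding transcripts. Peaks were placed by their centre, at a promoter (within 1 kb of a coding start) or distal to it (within the gene body and 50 kb on each side). Overlap meant at least 1 bp. All peaks lay within the GRCm38.p6 chromosomes. Python 3.11.15, numpy 2.4.6, pandas 2.3.3 and pysam 0.24.0 were used, and placement and overlap were tested on simulated data (800 of 800 peaks recovered in each). With 1 group, no test between conditions could be made, and values are given per library and as mean ± SD (n = 2), a spread that may be technical.

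The members, lists and rules were chosen with earlier results of these data known. Named were all members, up to 3 of the strongest shared distal peaks of each, neighbours whose promoter peak exceeded every peak of the member, and from the 49 other genes the 3 strongest, the first 3 without a peak and those open in 1 library. Alternatives were other windows and flanks, the longer lists, stronger peaks only, other start sites, stricter overlap and q-value, scaled signals and each library alone. Cut counts per base and alleles were not analysed here. Some results that this rule names are not reported here.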

Additional observations from a re-analysis of the deposited data

How the results depend on the processing

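The 5 open promoters, the 9 genes with a distal peak and the median of 4 distal peaks were the same from either library alone (lowest and highest 5 and 5, 9 and 9, 4 and 4). Among the 49 others each library alone gave 29 open genes, of which 28 were shared. With a flank of 10 kb, 5 members had a distal peak and the median was 2, and with 100 kb it was 7.5. With the stronger 50% of peaks 7 members had a distal peak, and 6 when a peak went only to the gene with the nearest coding start. No share or median over all protein-coding genes is given at these settings or at the other promoter windows below. The members can therefore not be compared with all genes there. The mean share of distal peaks found in both libraries, 78.6%, was 70.5% when 50% of both peaks had to overlap and 90.2% against the longer list of the other library. The median promoter signal of the open members, 2.31, was 1.48 after division by the median peak signal of each library. The total of bases over the 9 spans at a false discovery rate of at most 0.05, averaged over the libraries, was 33000. At 0.001 it was 21130. Windows of 500 and 2500 bp left 5 and 6 members open, and stronger peaks alone or the longest transcript alone left 4. The member added at 2500 bp was the fat cell marker Adipoq, through its peak at -2012 bp. No paired analysis was possible because the 2 libraries form 1 group. Unknown depth and thresholds limit all statements on absent peaks.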
